A study of Mus musculus with 14 samples.

Results

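In differentiating C2C12 cells, 1120 of 10715 control peaks of elongating RNA polymerase II (Pol II S2P) were overlapped by a peak of the same antibody after knockdown of the long noncoding RNA Myolinc. These sites were defined as control peaks off the mitochondrial genome that shared at least 1 bp with a siMyolinc peak. They were thus chosen by measured values, the peak calls of both Pol II S2P libraries, so their number is a description fixed by that choice. They made up 10.5% of the control list (95% Wilson interval 9.89 to 11.05), and the 1122 siMyolinc peaks they met made up 0.967% of that list. The lists of the whole series held 517016 peaks off the mitochondrial genome.

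The cells were C2C12, a mouse myoblast line that fuses into myotubes once serum is lowered, taken on day 2 of differentiation. The siMyolinc cells had been transfected with a small interfering RNA against Myolinc at 10 nM, 24 h before differentiation was started. Whether control cells got a control siRNA is not stated in the labels, nor whether libraries came from separate cultures. Chromatin was precipitated with 10 µg of antibody against the polymerase tail phosphorylated on serine 2 (Pol II S2P), against the myogenic factors MyoD and Myogenin, or against TDP-43, a DNA- and RNA-binding protein. Pol II S2P had 1 library per condition, so no difference between its conditions has a replicate check or a test. Within a condition every list was called against IgG, and the labels give 1 IgG sample per condition, so lists of a condition share that comparison.

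The C-terminal domain of the largest polymerase subunit is a run of short repeats that kinases phosphorylate as transcription proceeds. Phosphorylation at serine 2 is laid down after the polymerase leaves the promoter, builds up along the gene body and is usually highest towards the gene end. An antibody against it therefore marks elongating polymerase over transcribed genes rather than polymerase poised at promoters.

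Promoter sites are those whose sequence can be read from the RefSeq promoter windows (GRCm38.p6, which is mm10). The first set shows the part of the peak that lies before the transcription start of 4 genes with high-scoring promoter sites. Sequences are written 5′ to 3′ on the strand of the gene, and capitals mark E-boxes, the CANNTG core bound by MyoD, Myogenin and other basic helix-loop-helix factors.
4930563M20Rik: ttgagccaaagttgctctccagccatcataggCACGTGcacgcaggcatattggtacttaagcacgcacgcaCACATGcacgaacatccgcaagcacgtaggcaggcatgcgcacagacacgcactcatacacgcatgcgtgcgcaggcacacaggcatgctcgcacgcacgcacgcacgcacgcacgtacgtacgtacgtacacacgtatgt
C1qtnf2: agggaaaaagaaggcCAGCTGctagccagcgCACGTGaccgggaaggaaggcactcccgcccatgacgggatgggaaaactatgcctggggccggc
Zfp879: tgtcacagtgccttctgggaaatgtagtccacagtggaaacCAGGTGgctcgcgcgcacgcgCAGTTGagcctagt
Fbxo39: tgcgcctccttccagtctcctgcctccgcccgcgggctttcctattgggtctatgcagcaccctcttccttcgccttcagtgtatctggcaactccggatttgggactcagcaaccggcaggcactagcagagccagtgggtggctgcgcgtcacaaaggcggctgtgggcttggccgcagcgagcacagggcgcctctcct
The 4930563M20Rik sequence, from chr8:116801413-116801625 on the minus strand, holds 2 E-boxes and 23 CpG dinucleotides, with a GC content of 57.7%. Those of C1qtnf2 (chr11:43474210-43474305, plus strand) and Zfp879 (chr11:50841553-50841628, minus strand) hold 2 E-boxes each. The C1qtnf2 stretch belongs to the control peak only, since the siMyolinc peak there spans chr11:43474419-43474637. The Fbxo39 sequence (chr11:72314242-72314443, plus strand) holds none. Its siMyolinc peak overlapped the control peak over 219 bp, the full width of a typical siMyolinc peak.

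The promoters of Ckm and Myl9 are shown because Ckm is a marker of muscle and Myl9, with Sfswap, had the most sites assigned to it. Ckm encodes muscle creatine kinase, and Myl9 encodes a regulatory light chain of smooth-muscle and nonmuscle myosin.
Ckm: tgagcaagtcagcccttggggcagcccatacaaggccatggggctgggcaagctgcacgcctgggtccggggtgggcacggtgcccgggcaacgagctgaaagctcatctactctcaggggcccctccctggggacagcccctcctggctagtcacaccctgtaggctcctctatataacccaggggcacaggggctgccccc
Myl9: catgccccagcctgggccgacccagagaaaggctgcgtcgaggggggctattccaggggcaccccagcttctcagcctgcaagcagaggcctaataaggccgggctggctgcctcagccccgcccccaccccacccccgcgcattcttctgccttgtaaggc
The Ckm sequence lies at chr7:19410891-19411093 and that of Myl9 at chr2:156775214-156775375, both on the plus strand. Neither stretch holds an E-box, and their GC contents were 66.5% and 67.9%. In all, 43 of the 1120 sites met a RefSeq promoter window, beside 360 of all 10715 control peaks. A window runs from 250 bases before the start to 50 after it.

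CANNTG, searched on both strands, was found in 77.8% of the 45 windows met by the sites (63.7 to 87.5), in 74.6% of the 351 windows met only by control peaks not found again, and in 72.3% of all 32817 windows. CAGCTG, a subset of CANNTG, was found in 22.2%, 23.4% and 16.3% in the same order. TATAAA was found in 15.6% (7.75 to 28.8), 8.26% (5.81 to 11.6) and 13.6%, and TGTGTG in 24.4%, 21.7% and 21.1%. Median GC content was 57.3% in windows of the sites, 60.0% in those of control peaks not found again and 52.7% overall. The intervals of the sites' windows included the values of the other control windows for each of the 4 motifs.

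The libraries differed in depth, which bears on every comparison of the lists. Scores within each Pol II S2P list were whole multiples of 1 step, within a rounding tolerance of 0.05, and a step was read as 1 sequence tag. On that reading the siMyolinc library was 2.59 times as deep, with 3775523 against 1455038 tags if scores are scaled to 10000000. Its list was 10.8 times as long (116064 against 10715 peaks) and covered 25.4 Mb against 2.41 Mb. Median peak width was 225 bp in control and 219 bp in siMyolinc cells. The part that depth played in which peaks were found again was not tested.

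Sites found in both conditions were small peaks. The control peaks held a median of 6 tags (4 to 32), the same median as all control peaks, and the siMyolinc peaks they met held a median of 13 (6 to 53) against 11 over the whole siMyolinc list. The median ratio of siMyolinc to control tags at these sites was 2, beside a depth ratio of 2.59 that rests on the assumed scaling. Both counts belong to the peak calls that chose the sites, so their ratio does not measure a change in occupancy. Peaks with few control tags were found again less often. The share was 7.17% (5.29 to 9.65) at 4 tags and 7.83% (6.98 to 8.76) at 5. It was 11.3% at 6, 11.9% at 7, 12.97% at 8 and 14.2% (11.7 to 17.3) at 9. Above that it did not go on rising, with 11.3% at 11 tags and 11.7% (8.27 to 16.3) at 12 or more. The tallest control peak held 5235 tags and was not found again.

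**Figure D1:**
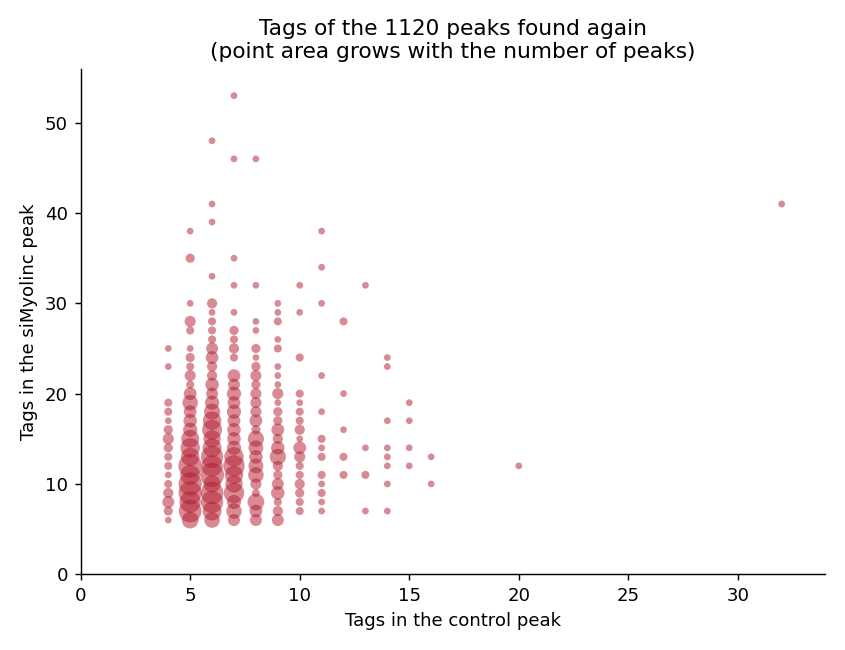
Tags in the control peak (x axis) and in the overlapping siMyolinc peak (y axis) at the 1120 Pol II S2P sites found in both conditions, where point area grows with the number of peaks at that pair of values. Most sites lie at 5 to 8 control tags, and the site with 32 control tags stands apart from the rest.

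Most overlaps were well beyond the 1 bp minimum. The median overlap was 156 bp (quartiles 101 and 190), and 844 sites (75.4%) overlapped over at least 100 bp, with a median distance between peak centres of 66 bp. Just inside the limit, 22 sites overlapped by 10 bp or less. Just outside it, 17 control peaks that were not counted lay within 10 bp of a siMyolinc peak. Of the 9595 control peaks not found again, 1483 (15.5%) had a siMyolinc peak within 1000 bp, and the median gap was 5162 bp. Both peaks of a site carried the same annotation class at 983 sites (87.8%). Of the 336 exonic sites, 256 were exonic in the siMyolinc list too and 61 were intronic there.

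Exonic sites took a larger part among the peaks found in both conditions than in either list. Exons held 30.0% of the sites (27.4 to 32.7), against 21.4% of all control peaks (20.6 to 22.1) and 3.76% of siMyolinc peaks. Intergenic peaks made up 30.4% (27.7 to 33.1), against 40.6% of control and 49.6% of siMyolinc peaks. Introns held 28.0% (25.5 to 30.7), close to the 28.9% of the control list and below the 41.6% of the siMyolinc list. Promoters held 4.38% (3.32 to 5.74) against 3.76% and 2.00%. The 3′ UTR share was 3.48% (2.56 to 4.72) against 2.25% and 1.16%, and CpG islands held 4.55% (3.48 to 5.94) against 3.26% and 0.452%. These shares compare peaks of 1 library with a part of themselves. Their intervals cover counting error only. Without repeat peaks the differences from all control peaks narrowed, from 8.65 to 4.80 percentage points for exons, from -10.3 to -3.21 for intergenic peaks and, for gene bodies as a whole, from 9.35 to 3.57. With the siMyolinc list limited by score to the control list's length (204 sites) they widened to 14.4, -15.1 and 15.1.

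**Figure D2:**
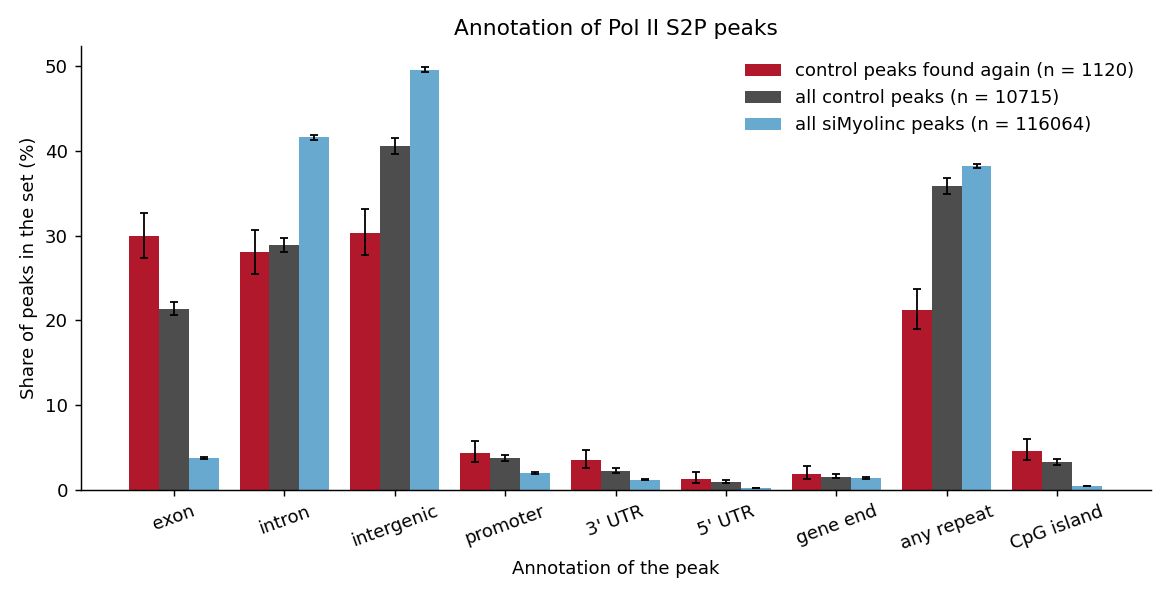
Share of peaks (y axis, %) in each annotation class (x axis) for the sites found in both conditions, all control peaks and all siMyolinc peaks of Pol II S2P, with 95% Wilson intervals as error bars. The exon bar of the shared sites stands at 30.0% and the siMyolinc exon bar at 3.76%, while the intergenic bars run the other way.

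Seen from the control list, gene-end and exonic peaks were found again more often than repeats. The share found again was 16.2% of 3′ UTR peaks (12.1 to 21.4), 14.7% of exon peaks (13.3 to 16.2), 14.6% of CpG island peaks (11.3 to 18.7) and 12.2% of promoter peaks (9.32 to 15.7). It was 13.6% of 5′ UTR peaks and 12.6% of peaks at transcript ends, each on few peaks. Introns outside repeats gave 11.9% (10.5 to 13.4) and intergenic peaks outside repeats 11.1% (9.72 to 12.7), so gene-free sequence without repeats was close to introns. Of 3843 peaks in repeats 238 (6.19%) were found again, against 12.8% (12.1 to 13.6) outside repeats. The annotation names repeats only for intronic and intergenic peaks, so exonic peaks count as outside repeats whatever their sequence.

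A split by tags was chosen after the data were seen. Exon peaks were found again in 14.7% of cases with up to 5 control tags, 14.5% with 6 or 7 and 14.9% with 8 or more. Peaks in repeats gave 4.36% (3.53 to 5.37), 7.37% and 9.92% (7.54 to 12.9) in the same order. Introns outside repeats gave 9.47% (7.44 to 11.98), 12.8% and 13.6%, and intergenic peaks outside repeats 8.68% (6.75 to 11.1), 12.6% and 12.8%. With up to 5 tags the introns and intergenic peaks outside repeats had overlapping intervals, and repeats lay below both. With 8 or more tags the intervals of exons (12.6 to 17.7), introns, intergenic peaks and repeats overlapped.

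Repeat families differed among themselves. LTR retrotransposons, which carry their own promoters, were found again in 9.46% of 518 peaks (7.23 to 12.3). The share was 7.08% of 1371 LINE peaks (5.83 to 8.56) and 5.98% of 669 SINE peaks (4.42 to 8.04). Only 33 of 996 simple-repeat peaks (3.31%, 2.37 to 4.62) and 2 of 106 low-complexity peaks were found again. The dinucleotide repeats (TG)n and (CA)n gave 7 of 217 and 7 of 220. Of 85 satellite peaks 3 were found again. RMER1A and RMER1B, picked out after their values were seen, gave 7 of 27 and 5 of 39 with intervals of 13.2 to 44.7% and 5.60 to 26.8%.

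**Figure D3:**
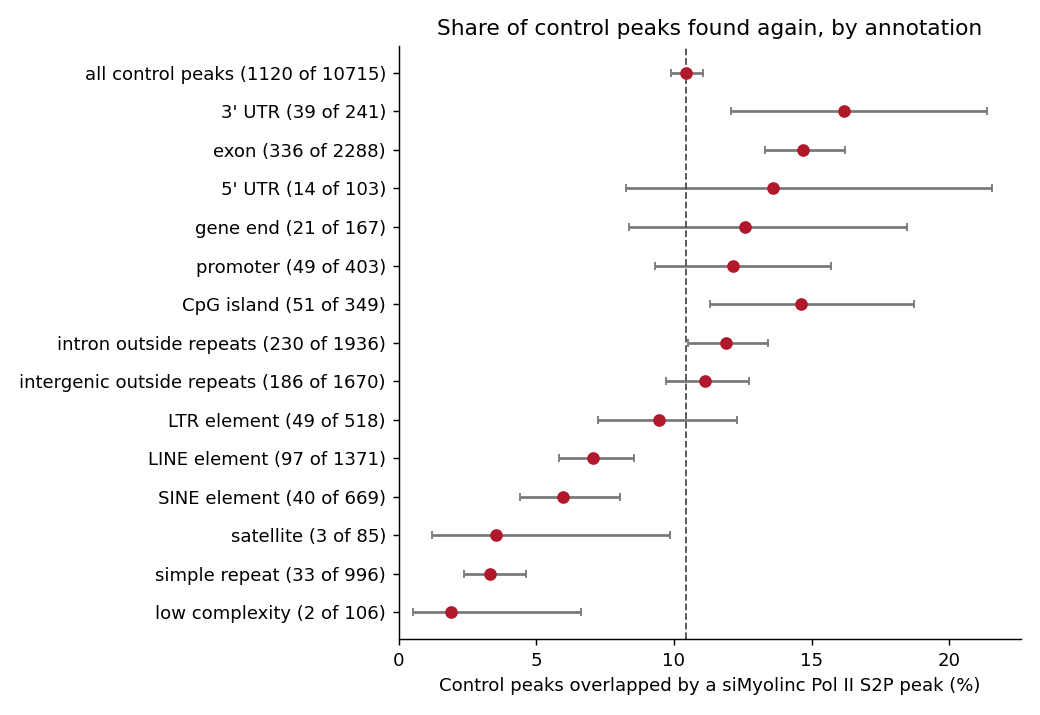
Share of control Pol II S2P peaks overlapped by a siMyolinc peak (x axis, %) for each annotation of the control peak (y axis), with 95% Wilson intervals and the dashed line at the share over all control peaks. Exons at 14.7% and 3′ UTRs at 16.2% lie to the right of 10.5%, whereas simple repeats at 3.31% lie to its left.

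The sites also lay nearer to genes. Their median distance to the nearest annotated transcription start was 18140 bp, against 24616 bp for all control peaks and 35639 bp for siMyolinc peaks. Peaks within 1000 bp of a start were found again in 11.6% of cases, those at 1000 to 10000 bp in 12.0% and those at 10000 to 100000 bp in 11.4%. Beyond 100000 bp the share was 6.53% (5.63 to 7.58). Among autosomes and the X chromosome, the share ran from 6.10% on chromosome 9 (4.03 to 9.15) to 12.9% on chromosome 6 (10.3 to 15.9).

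Sites inside gene bodies, meaning exons, introns, UTRs and noncoding exons, made up 63.4% of the sites (60.5 to 66.2), against 54.0% of control peaks and 47.0% of siMyolinc peaks. Position along the host gene could be computed for 517 of the 710 gene-body sites, since strand was known only for genes in the promoter table. The median position was 65.2% of the way from start to end, against 62.5% over 4325 control peaks and 52.7% over 41681 siMyolinc peaks. The last 20% of the gene's length held 35.0% of the sites (31.0 to 39.2), against 31.3% of control peaks (29.9 to 32.7) and 21.7% of siMyolinc peaks. The interval of the sites overlapped that of all control peaks, and both lay above the siMyolinc share.

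Of exonic sites 41.1% (35.1 to 47.3) lay in the last 20% of length, against 38.9% of exonic control peaks and 35.4% of exonic siMyolinc peaks. Intronic sites were spread more evenly than exonic ones, with 22.7% (17.8 to 28.6) in the last 20% of length and 20.5% in the first. By exon number, 24.4% of exonic sites lay in a last exon, 6.79% in a first exon and 68.8% in an inner one. All control peaks gave 23.6%, 8.37% and 68.0%. The host genes of the sites had a median length of 47854 bp, against 56772 bp for control and 98917 bp for siMyolinc peaks.

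**Figure D4:**
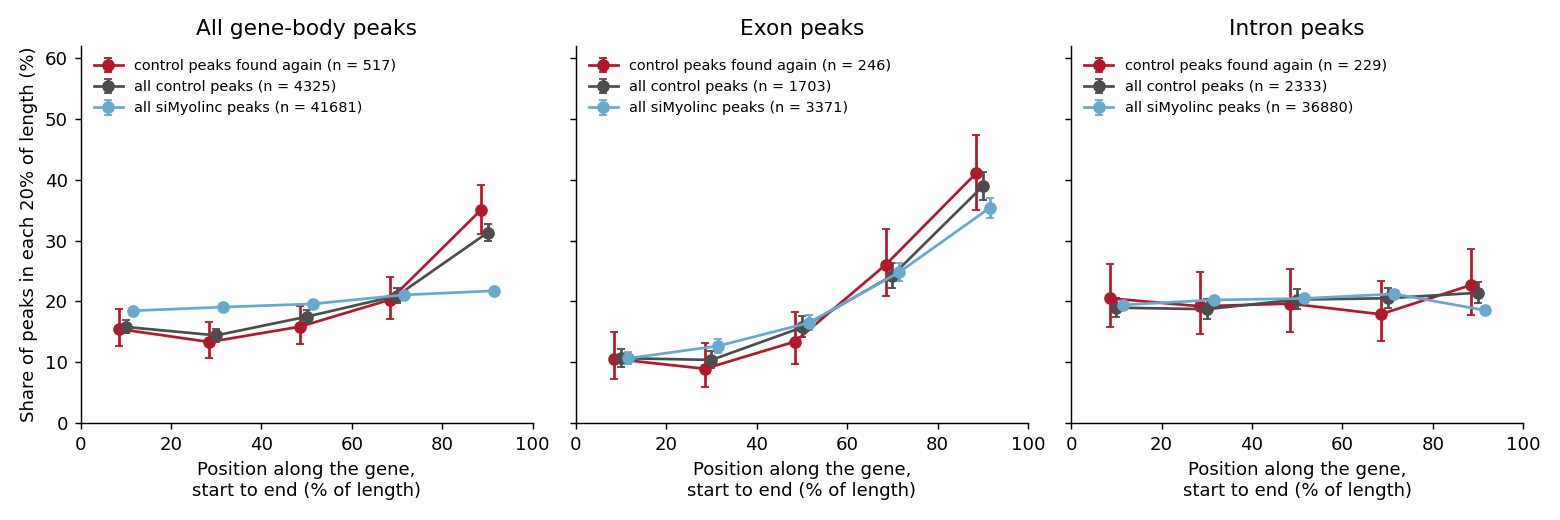
Share of Pol II S2P peaks in each 20% step of the host gene (y axis, %) by position from start to end (x axis, % of gene length), for all gene-body peaks, exon peaks and intron peaks, with 95% Wilson intervals. In the last 20% of length the shared sites reach 35.0% over all gene-body peaks and 41.1% in exons, and in introns they stay between 17.9% and 22.7%.

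The exonic sites with the most control tags lay in inner and last exons. Exon 2 of 3 of Msantd3, a Myb/SANT-domain gene, carried a site at chr4:48552571-48552795 with 16 control tags (exact Poisson 95% interval 9.15 to 26.0) and 13 siMyolinc tags (6.92 to 22.2). It was also met by all 3 control TDP-43 lists, with 15, 10 and 7 tags, and by no siMyolinc TDP-43 peak. Exon 4 of Zfp423, which encodes a zinc-finger factor of preadipocyte commitment, carried 2 sites, with 15 and 19 tags (control first, here and below) at chr8:87782522-87782746 and with 10 and 18 tags at chr8:87781248-87781472. Both lay just past the middle of the gene, at 59.8% and 60.2% of its length. The intervals of the 2 conditions overlapped at the Msantd3 site before any allowance for depth. Places named here and below are those of the control peak. The second count is that of the siMyolinc peak it met, which can lie partly outside that place and carry another class.

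Exon 2 of Tor4a, a torsin-family ATPase gene, held 14 and 13 tags, and exon 2 of 4 of Has3, a hyaluronan synthase gene, 14 and 24. Exon 5 of 5 of Zfp467, a zinc-finger gene, held 13 and 11, and exon 6 of 7 of Kcmf1, a ubiquitin ligase gene, 13 and 14. Exon 20 of 21 of Camk2b, which encodes a subunit of calcium/calmodulin-dependent kinase, held 13 and 32 tags at 97.3% of the gene's length. Exon 15 of 23 of Adgrl1, an adhesion receptor gene, held 12 and 28. Fuk, the gene of fucokinase and named Fcsk in the reference table, carried 2 exonic sites, with 11 and 22 tags in exon 15 of 24 and with 5 and 6 in exon 3. The siMyolinc peaks met by the Kcmf1, Camk2b and both Fuk sites were annotated as intronic. They overlapped the control peaks by 12 bp, 32 bp, and 21 and 129 bp.

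Outside satellites, the 6 sites with the most siMyolinc tags held 6 to 8 control tags. Exon 5 of 19 of Boc, which encodes a cell-surface receptor that promotes myoblast differentiation, held 7 control tags (2.81 to 14.4) and 53 siMyolinc tags (39.7 to 69.3) at chr16:44501563-44501787. Control TDP-43 replicate 1 had 20 tags there, and the other TDP-43 lists had no peak. An intron of Sdccag8, a centrosome gene, held 6 and 48 tags. Intron 15 of 16 of Ints9 held 8 and 46 (33.7 to 61.4), and Ints9 encodes a subunit of Integrator, a complex that cleaves nascent RNA at the polymerase. Exon 4 of 7 of Slc45a4, a transporter gene, held 7 and 46, intron 1 of Krt8, a keratin gene, 6 and 41, and intron 2 of Kcnq1, a potassium channel gene, 6 and 39. At the Boc and Ints9 sites the intervals of the conditions did not overlap. These sites were named for their siMyolinc scores and the libraries differed 2.59 times in depth, so the gap describes that choice.

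Among intronic sites outside repeats, the highest control counts were in intron 11 of Slc2a7, a sugar transporter gene, with 15 and 14 tags, and in intron 5 of Ccdc65, a ciliary dynein regulator gene, with 15 and 17. Intron 1 of Zfp827 held 14 and 10, and intron 9 of Fgd6 14 and 17. The last intron of Pcif1 held 12 and 13 tags at 95.0% of the gene's length. Pcif1 encodes a cap methyltransferase that binds the phosphorylated polymerase tail. The intron of Foxf2, a forkhead factor gene, overlaps a CpG island and held 11 and 38 tags, with an overlap of 10 bp between its peaks.

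The site with the most control tags lay in a satellite repeat inside an intron of Mkx, which encodes a homeobox factor of tendon cells. It held 32 control tags (21.9 to 45.2) and 41 siMyolinc tags (29.4 to 55.6). Another satellite site lay upstream of Mt2, a metallothionein gene, with 5 and 10. Intergenic sites nearest to Gm13212 held 20 and 12 tags at chr4:145632521-145632745 and 11 and 34 tags at chr4:145640439-145640663. An intergenic site 97762 bp from the start of Srrm4, a neural splicing regulator gene, held 15 and 12.

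Promoter sites held a median of 6 control tags (4 to 12), against 7 (4 to 16) at exonic and 6 (4 to 32) at intronic sites. The promoter of Adgb, the androglobin gene, held 12 and 28 tags at chr10:10472234-10472458, and that of Mir142b, a microRNA gene, 12 and 20. The 4930563M20Rik promoter, a noncoding RNA gene whose sequence is shown above, held 11 and 10 tags. It was met by all 3 control TDP-43 lists with 15, 8 and 14 tags, by siMyolinc Myogenin with 231 and by siMyolinc MyoD with 25. Over whole lists the median peak held 137 tags in siMyolinc Myogenin, 24 in siMyolinc MyoD and 15 in control Myogenin. Tag counts of different lists are therefore not on 1 scale. C1qtnf2, the gene of a C1q-related secreted protein, held 9 and 15, Zfp879 9 and 6, and Fbxo39, an F-box gene, 9 and 9. The siMyolinc peak met at C1qtnf2 was annotated as intronic and overlapped the promoter peak by 16 bp. The promoters of Tbx1, a T-box factor gene, and of Scg5, a neuroendocrine secretory gene, held 9 and 10 tags and 8 and 21. Frmd3 held 8 and 13, and 9230102O04Rik 8 and 23.

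At gene ends, the 3′ UTR of Cerk, the ceramide kinase gene, held 14 and 12 tags at chr15:86139613-86139837, which is 98.7% of the way along the gene. That site was met by all 3 control TDP-43 lists, with 9, 8 and 8 tags, and by siMyolinc TDP-43 with 8. The 3′ UTR of Pcnx held 9 and 7 tags and was met by all 3 control TDP-43 lists too. That of Wdr91, an endosomal gene, held 9 and 8. Transcript-end sites were led by Pla2g6, a phospholipase gene, with 13 and 11, Trpc4ap with 10 and 16, and Bnipl with 9 and 20. The Pla2g6 site also lay 101 bp from the annotated start of Baiap2l2, and the Bnipl site 321 bp from that of Gm128. At those places a gene end cannot be told apart from a neighbouring gene's start. The transcript end of Smpd5 held 9 and 9 tags and was met by all 4 TDP-43 lists, with 9, 8 and 8 tags in control and 10 in siMyolinc cells. 5′ UTR sites lay at Rgs7bp with 10 and 10 tags, Tmem154 with 9 and 14, Dpp6, a potassium channel partner gene, with 8 and 8, Ppp1r16b with 6 and 11, and Luzp2 with 6 and 19.

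Of 6872 genes nearest to a control peak, 1053 (15.3%) were nearest to a site found in both conditions. Another 5448 (79.3%) had a siMyolinc peak elsewhere only, and 371 had none. The nearest gene was protein-coding for 87.4% of the sites (85.3 to 89.2) and for 84.9% of all control peaks. Several sites fell to 65 genes. Myl9 had 3, namely its own promoter with 6 and 11 tags and 2 sites in introns of Dlgap4, a synaptic scaffold gene upstream of it, with 5 and 11 and with 4 and 9. Plekhg5 and Zpld1 had 2 intergenic sites each, those of Zpld1 in a LINE and an LTR element. Sfswap, the gene of a splicing regulator, had 3, of which 1 lay in its intron 7 with 5 and 13 tags and 2 were intergenic simple repeats. The gene that the annotation gives as nearest was not the gene of the named transcript for 292 of the sites, so the host is named here where they differ. Counted by host, 730 of 4533 genes with a control peak (16.1%) held a site, over 770 of 6280 peaks. The host counts were added after the data were seen.

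Muscle structure and contraction genes were the nearest genes of 6 sites. Of 68 genes on that list 18 had a control peak by nearest gene, and 6 of those 18 (33.3%, beside 15.3% of all genes) had a site found in both conditions, over 6 of 28 peaks (21.4%, beside 10.5% of all control peaks). By host gene the count was 3 of 13 genes (23.1%, beside 16.1% of all host genes). By host peak it was 3 of 41, beside 770 of 6280 over all host genes, so that share lay below the share over all. Exon 27 of 40 of Myh8, the perinatal myosin heavy chain gene, held 9 control tags (4.12 to 17.1) and 22 siMyolinc tags (13.8 to 33.3) at chr11:67298422-67298646. That site was met by all 3 control TDP-43 lists (11, 9 and 10 tags), by control MyoD (11 tags) and by siMyolinc Myogenin (198 tags). The median peak of that Myogenin list held 137 tags. No siMyolinc TDP-43 peak met the Myh8 site. Several myosin heavy chain genes are similar in sequence and lie side by side, and whether reads were split between them was not tested.

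The other muscle sites were small. The Ckm promoter site held 5 control tags (1.62 to 11.7) and 10 siMyolinc tags, was met by control TDP-43 replicate 3 with 6 tags, and was met by siMyolinc MyoD. Exon 2 of 106 of Ryr1, the calcium release channel of the sarcoplasmic reticulum, held 5 and 8 tags and was met by control Myogenin with 17. The site assigned to Mb, the myoglobin gene, was intergenic with 5 and 14 tags. That of Chrnb1, an acetylcholine receptor subunit gene, was the transcript end of its neighbour Fgf11, with 6 and 11 tags. The site assigned to Dmd, the dystrophin gene, lay 663788 bp before its start inside an LTR element, with 8 and 19 tags. So 3 of the 6 (Myh8, Ckm and Ryr1) lay in or at the promoter of the gene itself.

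Myogenic regulators gave, by nearest gene, 1 of the 14 with a control peak (40 on the list), or 7.14% beside 15.3% of all genes. This was Tcf3, which encodes an E-protein partner of MyoD, through an intergenic site 4545 bp before its start with 6 and 14 tags. By host gene the count was again 1 of 14, here Notch1, a receptor that restrains myogenic differentiation, with 6 and 11 tags in exon 26 of 34. The control peak at the Myod1 promoter, with 6 tags and centred 121 bp before the start, was not found again, nor was the one in an exon of Myog, with 5 tags. Of the 12 muscle markers 6 had a control peak and 3 a shared site (Ckm, Mb and Myh8). Neuron markers gave 2 and 0 of 4, hepatocyte markers 1 and 0 of 4, and adipocyte markers 0 and 0 of 4, all by nearest gene. By host gene the muscle markers gave 6 and 2, neuron markers 2 and 0, hepatocyte markers 0 and 0, and adipocyte markers 1 and 1, through a site in exon 7 of 9 of Plin1, the perilipin gene, with 9 and 18 tags. Peaks do not measure expression, so these counts only place sites near marker genes.

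Genes of the polymerase and elongation machinery gave, by nearest gene, 4 of the 10 with a control peak (47 on the list), or 40.0% beside 15.3% of all genes. By host gene 5 of 12 held a site, beside 16.1% of all host genes. Intron 3 of Polr2e, a subunit shared by the nuclear RNA polymerases, held 8 tags in both conditions. Exon 5 of 5 of Polr2f, also a shared subunit, held 7 and 16 at 98.8% of the gene's length. Exon 10 of 20 of Aff1, a scaffold of the super elongation complex, held 7 and 7. The site assigned to Supt4a, a subunit of the elongation factor DSIF, lay in the 3′ UTR of the neighbouring Rnf43 with 9 and 16 tags. By host the 3′ UTR of Ell, an elongation factor gene, held a site with 8 and 9 tags. Cdc73 and Paf1 of the PAF complex, Iws1, Ccnk, Mllt3 and Nelfcd were the nearest genes of control peaks that were not found again.

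Of 20 neuronal and synaptic genes that were nearest to a control peak, 2 were nearest to a shared site (10.0%, beside 15.3% of all genes). These were Nlgn1, in intron 5 with 6 and 25 tags, and Cacna1a, in intron 4 with 5 and 8. By host gene 4 of 22 held 6 sites, beside 16.1% of all host genes. Among the added sites were those in exon 19 of 22 of Shank3, a postsynaptic scaffold gene, with 9 and 16 tags, and in introns 33 and 43 of Cacna1a.

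By nearest gene, beside the same 15.3%, extracellular matrix genes gave 0 of 9, hepatocyte genes 0 of 6 and the cell cycle list 0 of 1, and no adipocyte gene had a control peak. By host gene, beside 16.1%, the extracellular matrix list gave 2 of 13 (Col6a2 and Eln), the cell cycle list 1 of 1 (Bub1b) and the adipocyte list 1 of 1 (Plin1). The lists are short, and none was tested against the others. Peaks nearest to Zfp genes, a group chosen after the data were seen, were found again in 20 of 145 cases (13.8%, 9.11 to 20.3, beside 10.5% of all control peaks). Olfr genes, which encode olfactory receptors and were chosen likewise, gave 13 of 100 (7.76 to 21.0%), an interval that, like that of the Zfp genes, includes 10.5%.

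TDP-43 peaks met the sites found in both conditions more often than they met other control peaks in each of the 4 TDP-43 lists. Control replicates 1 to 3 met 47.1% (44.2 to 50.1), 27.2% (24.7 to 29.9) and 24.2% (21.8 to 26.8) of the sites, and 31.7%, 18.5% and 15.5% of the control peaks not found again. Over all control Pol II S2P peaks these lists met 33.3%, 19.4% and 16.4%. The siMyolinc TDP-43 list met 12.9% of the sites (11.02 to 14.9) and 5.53% of the other control peaks, with 6.3% over all. In each list the 2 intervals did not overlap. Control lists share 1 IgG comparison with the control Pol II S2P list. The siMyolinc TDP-43 list shares 1 with the siMyolinc Pol II S2P list, whose peaks chose the sites but met none of the other control peaks. These shares are therefore set side by side and were not tested.

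The gap had the same direction within exons, introns, promoters and intergenic peaks, but was not clear of counting error in each. In exons the 3 control lists met 54.2%, 32.1% and 28.6% of the sites against 46.3%, 28.4% and 24.8% of other peaks, and siMyolinc TDP-43 met 14.9% against 8.15%. Between genes they met 44.1%, 24.4% and 22.1% against 24.96%, 13.9% and 11.8%, and siMyolinc TDP-43 met 12.6% against 4.31%. Peaks with 8 or more control tags gave 54.5%, 38.3% and 32.0% against 48.0%, 31.9% and 28.6%. In exons the intervals for control replicates 2 and 3 overlapped, and among peaks of 8 or more tags those of all 3 control replicates did. At promoters, with 49 sites, the control lists met 46.9%, 28.6% and 32.7% of the sites against 37.0%, 24.6% and 17.5% of other peaks. The siMyolinc TDP-43 list met 10.2% against 6.21% there, and the intervals overlapped in all 4 lists.

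The share of sites met by TDP-43 was 32.9% ± 12.5 (SD, n = 3) in control and 12.9% in the single siMyolinc library. The difference of -20 percentage points gave p = 0.5 by an exact two-sided permutation test over libraries, whose smallest possible value for 3 against 1 is 0.25, so the design cannot separate the groups. Control replicate 1, with 29703 peaks, lay well above replicates 2 and 3, with 10571 and 8162. The siMyolinc list held 24960 peaks and met fewer sites than any of them.

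All 3 control TDP-43 lists met 88 sites (7.86%, 6.42 to 9.58) and 5.22% of control peaks not found again, beside 5.5% of all control peaks. Of these 88, 31 were exonic (35.2%, beside 30.0% of all sites), 26 intronic (29.5%, beside 28.0%) and 23 intergenic (26.1%, beside 30.4%). The siMyolinc TDP-43 list also met 20 of the 88, beside 12.9% of all sites. Exon 3 of 3 of Slc25a51, a mitochondrial NAD carrier gene, held 11 and 18 Pol II S2P tags, with 21, 14 and 10 TDP-43 tags in control and 10 in siMyolinc cells. Intron 1 of Jazf1, a zinc-finger gene, held 10 and 11, with 5, 7 and 10 TDP-43 tags in control and no siMyolinc TDP-43 peak.

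The myogenic factors met few of the sites. Control MyoD met 4.20% (3.17 to 5.54) and 2.95% of other control peaks, beside 3.08% of all, and siMyolinc MyoD met 11.7% (9.94 to 13.7) and 7.72%, beside 8.14%. Control Myogenin met 5.27% (4.11 to 6.74) and 5.75%, beside 5.7%, and siMyolinc Myogenin 3.93% (2.94 to 5.23) and 2.67%, beside 2.8%. The intervals of the sites and of the other peaks overlapped for control MyoD and for both Myogenin lists, and did not for siMyolinc MyoD. Within exons siMyolinc MyoD met 12.2% and 11.3%, and at 8 or more control tags 11.2% and 10.8%, with overlapping intervals. In introns it met 11.5% and 7.05%, and between genes 11.2% and 5.85%, with intervals that did not overlap. The siMyolinc MyoD list shares its IgG comparison with the siMyolinc Pol II S2P peaks that chose the sites. Only intron 10 of Rrp12, a ribosome biogenesis gene, was met by TDP-43, MyoD and Myogenin in control. It held 10 and 9 Pol II S2P tags, with 13 MyoD tags, 8 Myogenin tags and 6 and 5 tags of TDP-43 replicates 1 and 2. No list of another antibody, in either condition, met 293 of the sites (26.2%) or 4707 of the control peaks not found again (49.1%).

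**Figure D5:**
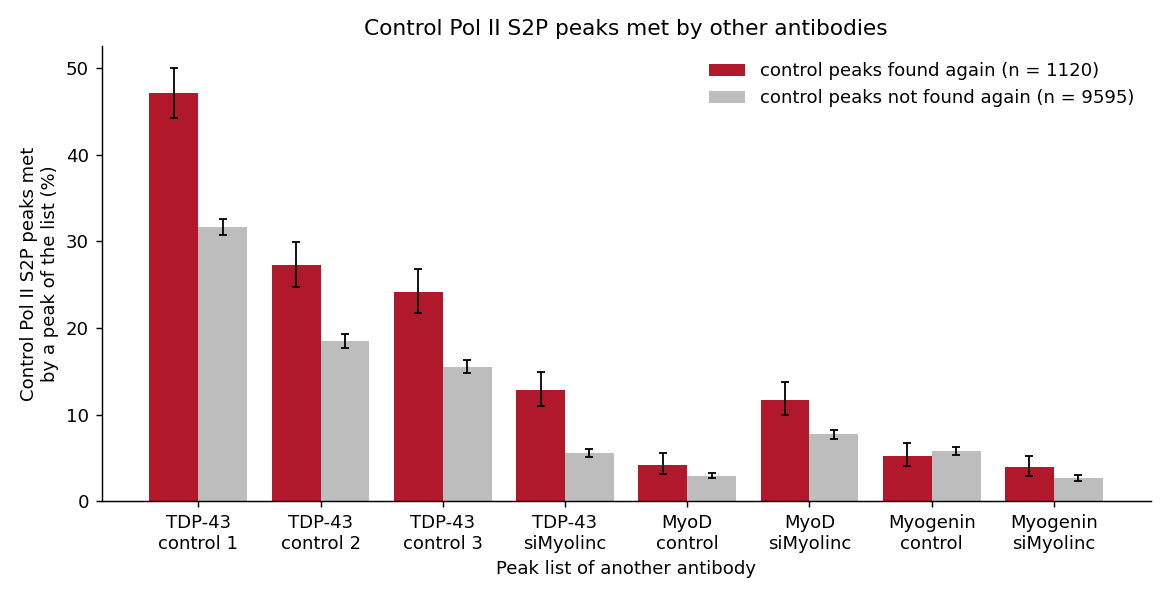
Share of control Pol II S2P peaks met by each peak list of another antibody (y axis, %; lists on the x axis), for the sites found in both conditions and for control peaks not found again, with 95% Wilson intervals. The sites stand higher for all 4 TDP-43 lists, for example 47.1% against 31.7% in control replicate 1, and the bars for control Myogenin are level at 5.27% and 5.75%.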

How the data were processed

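Peak lists of 10 ChIP-seq libraries among 14 samples were used. The authors called each list against IgG and annotated it with HOMER on mm10, per the file headers and the submitters' processing notes. No source used here states the aligner, the HOMER version or its settings. The deposited peak score is the authors' own value; a score divided by its list's step gives tags, a reading that held for 95.8% of scores in siMyolinc MyoD and 100% in the other lists. The deposited focus ratio is a fraction and had a median of 0.857 both at the sites and elsewhere. Scaling to 10000000 tags is assumed, not stated.

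Control Pol II S2P peaks off the mitochondrial genome (1 peak left out) were overlapped with siMyolinc peaks at 1 bp or more, in Python 3.11.15 with numpy 2.4.6, pandas 2.3.3 and scipy 1.17.1. Overlap counting and step finding were tested on simulated data. Intervals are Wilson (shares) and exact Poisson (tags) at 95% and cover counting error only, since 18 PCR cycles copy molecules. A site's host gene is that of the transcript the annotation names. Of 6361 control peaks with a named transcript, 6280 matched the RefSeq gene table (GRCm38.p6). Named sites are those with the highest control or siMyolinc scores overall or per class, the genes with most sites, sites on 3 fixed gene lists (muscle, myogenic, elongation), and sites met by all control TDP-43 lists or every antibody. Some sites under that rule are not reported here. Neuronal sites and list genes counted by host were named after their values were seen. The members and lists were chosen with earlier results of these data known. Alternatives were the overlap rule, score limits, list length, peak extension, repeats and leaving out a TDP-43 library.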

Additional observations from a re-analysis of the deposited data

How the results depend on the processing

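The share of control peaks found again (10.5%) followed the overlap rule and list length. It was 7.53% at an overlap of 50% of the shorter peak, 8.65% with peaks at or above each list's median score, and 17.9% with control peaks extended by 500 bp. It was 12.8% without repeats and 1.90% (204 sites) with the siMyolinc list limited by score to the control list's length. With that limited list the differences from all control peaks widened: exon 8.65 to 14.4 percentage points, intergenic -10.3 to -15.1, gene body 9.35 to 15.1, and repeat -14.6 to -21.2. Without repeats they narrowed to 4.80 for exons, -3.21 for intergenic peaks and 3.57 for gene bodies. The intron difference of -0.849 became 0.483, 0.267 and 1.02 (50% overlap, median score, limited list), and the promoter difference of 0.614 became -0.309 without repeats, both within the counting intervals of the main values. The other alternatives moved the exon, intergenic, gene-body and repeat differences by less than their intervals. The TDP-43 difference of -20 points ran from -24.3 to -12.9 when 1 control library was left out, with exact permutation p from 0.333 to 0.667, and the design cannot pass a threshold under any setting. No paired analysis was possible because only control TDP-43 has replicate numbers. Control peaks held a median of 6 tags, which limits their precision.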
